A study of Mus musculus with 6 samples.

Results

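The Iroquois genes Irx1, Irx2, Irx3, Irx4 and Irx5 were followed in hearts of mouse embryos at embryonic day 9.5, a stage of looping and early chamber formation. The members were taken by gene symbol from the deposited table of normalized counts, and all 5 were found among its 15330 genes. One group of 3 libraries came from wild-type hearts. The other group of 3 came from hearts homozygous for a deletion, named H2-URI d/d in the labels, a CRISPR-Cas9 allele that lacks 373 kb upstream of Hand2. Strain and founder number are not known here. In either group 2 libraries carry the label female and 1 the label male, and all share a batch number. Whether 1 heart or several went into a library is not stated, so p-values measure only the spread between these libraries, which may be technical.

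Iroquois proteins are homeodomain transcription factors of the TALE superclass, whose homeodomain carries extra residues between its first and second helices, and they share a conserved motif known as the Iro box. In mouse the genes lie in clusters, with Irx1, Irx2 and Irx4 on chromosome 13 and Irx3, Irx5 and Irx6 on chromosome 8. In the heart Irx4 is a marker of ventricular muscle that keeps atrial genes low there, Irx1 and Irx2 mark the ventricular septum, Irx3 marks trabecular muscle and later the fast conduction system, and Irx5 is known from the endocardium and from the gradient of repolarization across the ventricular wall. Irx4 is also known as a gene whose cardiac expression is reduced in embryos that lack Hand2, a basic helix-loop-helix factor that binds E-boxes.

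The libraries held 25583210 to 32043595 recovered reads. Hand2 itself had 3911, 3789 and 4407 normalized counts (reads divided by 1 size factor per library) in the wild-type libraries and 1025, 1158 and 1163 in the deletion libraries, so the deletion libraries kept 27.6% of the wild-type mean. Table columns were matched to samples through the library code in the sample title. By that code, the file recorded under 4 of the 6 samples belongs to the other group. Under the recorded files Hand2 was higher in the deletion (log2 change 0.57), Irx5 was too (0.26), and limma called 0 genes, with 414 at an unadjusted p under 0.05. All values below rest on the title codes.

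The start regions of Irx2, Irx3 and Irx4 are shown because Hand2 binds E-boxes, written CANNTG, and because Irx2 and Irx3 were lower in every deletion library while Irx4 was not. The sequences are from RefSeq on GRCm38.p6, which held 3 of the 5 members. Each runs 5′ to 3′ on the gene's strand, from 250 bases before to 50 bases after the start, with matches to CANNTG in capitals.
Irx2: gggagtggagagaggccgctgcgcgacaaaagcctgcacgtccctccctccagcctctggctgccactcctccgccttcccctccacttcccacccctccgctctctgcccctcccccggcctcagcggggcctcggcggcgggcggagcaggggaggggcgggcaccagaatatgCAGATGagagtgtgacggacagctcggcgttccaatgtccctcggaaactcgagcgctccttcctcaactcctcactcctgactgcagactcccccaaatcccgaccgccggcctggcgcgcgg
Irx3: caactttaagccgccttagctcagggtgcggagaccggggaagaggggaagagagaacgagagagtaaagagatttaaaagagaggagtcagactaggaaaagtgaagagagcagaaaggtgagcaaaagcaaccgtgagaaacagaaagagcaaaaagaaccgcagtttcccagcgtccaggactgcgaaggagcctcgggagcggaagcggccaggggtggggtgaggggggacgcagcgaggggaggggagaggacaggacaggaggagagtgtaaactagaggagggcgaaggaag
Irx4: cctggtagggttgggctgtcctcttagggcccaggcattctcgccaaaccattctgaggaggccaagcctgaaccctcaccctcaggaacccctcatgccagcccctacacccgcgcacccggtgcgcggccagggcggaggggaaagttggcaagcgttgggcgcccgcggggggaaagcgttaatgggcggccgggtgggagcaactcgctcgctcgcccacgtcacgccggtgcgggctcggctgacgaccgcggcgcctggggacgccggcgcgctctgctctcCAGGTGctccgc
They lie at chr13:72628570-72628869 on the plus strand for Irx2, at chr8:91801605-91801904 on the minus strand for Irx3 and at chr13:73260247-73260546 on the plus strand for Irx4. Irx2 held 1 match, CAGATG, Irx4 held 1 match, CAGGTG, and Irx3 held 0 in this window. Of 32851 start regions of this length in the table, 72.3% held at least 1 match, so the presence of one sets neither Irx2 nor Irx4 apart. The Iroquois binding sequence ACANNTGT, which contains CANNTG, was found in 7.38% of all start regions and in none of the 3, and the Nkx2-5 type sequence TNNAGTG in 39.4% of all and in none of the 3. Both strands were searched. The 3 windows were rich in G and C, at 69.0% for Irx2, 56.0% for Irx3 and 70.7% for Irx4, against a median of 52.7% over all start regions. A match here is a description of letters, and nothing in these data measured binding.

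Irx5 was the only member called: its mean in the deletion libraries was 60.2% of its wild-type mean. Irx3, Irx2 and Irx1 stood at 78.0%, 80.1% and 83.0% of wild-type, lower in every deletion library than in every wild-type library, but none of these passed the threshold over all genes. Irx4, the ventricular member and the most abundant of the family, stood at 104%. The test was limma on log2(normalized count + 1), with Benjamini-Hochberg adjustment over all 15330 genes and a threshold of 0.05. At that threshold 3.05% of all genes were called, 1.5% as lower in the deletion and 1.55% as higher. Of the 5 members, 1 was called lower and 0 higher. Groups did not overlap, with the deletion lower, for 14.5% of all genes and for 4 of the 5 members; in either direction the share was 27.4% of all genes. The members' median log2 fold change was −0.31, beside −0.01 over all genes.

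**Figure D1:**
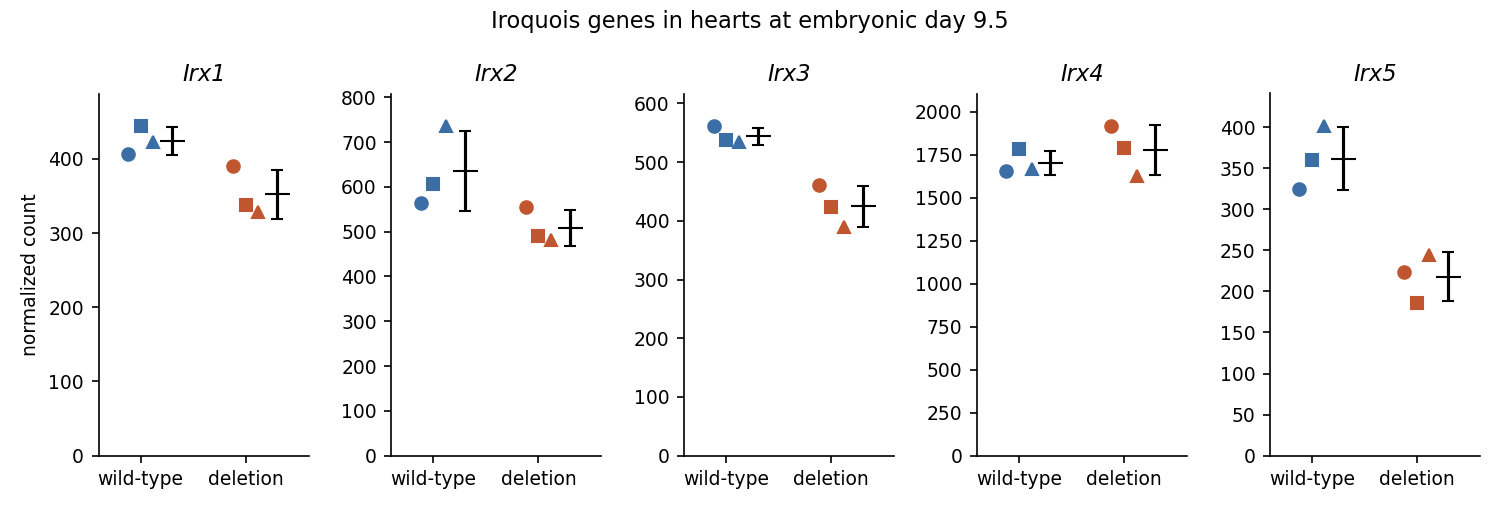
Normalized count of each Iroquois gene in each library (vertical axes start at 0 and differ between panels), with circles, squares and triangles for replicates 1, 2 and 3 of a group and the bar for the mean ± SD of 3 libraries. All 3 deletion libraries lie below all 3 wild-type libraries for Irx1, Irx2, Irx3 and Irx5, while the groups mix for Irx4.

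Irx5 lies on chromosome 8 beside the long non-coding RNA Crnde. Its normalized counts were 325, 359 and 401 in wild-type libraries 1 to 3 and 224, 186 and 244 in deletion libraries 1 to 3. The highest deletion library was thus below the lowest wild-type library. The means were 362 ± 38.2 and 218 ± 29.6 (SD, n = 3), resting on 200 to 438 reads per library. The estimate from limma was −0.73 on the log2 scale (SE 0.13, 95% interval −1.03 to −0.43, adjusted p = 0.0217). An exact permutation test, two-sided, gave p = 0.1, the smallest that 3 against 3 allows, and the same p for Irx1, Irx2 and Irx3. In limma the call ended without wild-type replicate 3 (adjusted p = 0.0924), without deletion replicate 1 (0.0777) and without deletion replicate 2 (0.101), while the estimate stayed between −0.82 and −0.62 with each library left out. It ended too with no intensity trend in the variance (0.0699) and in libraries labelled female alone (0.148).

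Irx3, a factor of trabecular and conduction muscle, had 561, 538 and 534 normalized counts in wild-type libraries 1 to 3. The deletion libraries held 460, 423 and 390. The wild-type libraries lay close together and the deletion libraries all lay lower. The means were 544 ± 14.5 and 424 ± 35.2 (SD, n = 3), with a limma estimate of −0.36 on the log2 scale (SE 0.09, 95% interval −0.57 to −0.16, adjusted p = 0.0649). Irx3 passed in DESeq2 on recovered reads (adjusted p = 0.0422), where 3.91% of all genes were called lower. It passed in limma once a length and GC trend across genes was taken out (−0.52, adjusted p = 0.0193; 1.99% of all genes called lower). It passed too with libraries scaled to equal cardiomyocyte markers (−0.46, adjusted p = 0.0353, limma; 4.13% of all genes called lower). The antisense gene Irx3os overlaps Irx3 in the annotation, and the strand setting of the counting is not known here, so reads of the pair cannot be told apart where they overlap.

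Irx6, the remaining gene of the chromosome 8 cluster, was outside the members but is given for the cluster. Few reads came from it, with 44.3, 43.6 and 34.8 normalized counts in the wild-type libraries, or 39, 49 and 38 reads. The deletion libraries held 16.9, 10.2 and 20.5 normalized counts, or 16, 11 and 19 reads. All 3 deletion libraries were below all 3 wild-type libraries. The means were 40.9 ± 5.30 and 15.9 ± 5.23 (SD, n = 3), and the limma estimate of −1.35 (SE 0.31) just missed the threshold, with adjusted p = 0.0505. In edgeR's quasi-likelihood test the adjusted p was 0.0433 and in DESeq2 0.0247. In limma it was 0.0286 with cardiomyocyte markers set equal and 0.0349 with the length and GC trend taken out. It was 0.0984 in limma with the replicate block. Irx6 was not called with no intensity trend, in libraries labelled female alone or with any 1 library left out. The order of the point estimates along chromosome 8 ran from Irx3 through Irx5 to Irx6, but neighbouring 95% intervals overlapped. That of Irx6, −2.05 to −0.66, overlapped that of Irx5, −1.03 to −0.43. The interval of Irx5 in turn overlapped that of Irx3, −0.57 to −0.16.

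On chromosome 13, Irx1 had 406, 444 and 423 normalized counts in wild-type libraries and 391, 338 and 328 in deletion libraries. The groups did not overlap, and deletion replicate 1 came nearest to the wild-type libraries. The means were 424 ± 18.8 and 352 ± 33.5 (SD, n = 3), with a limma estimate of −0.27 on the log2 scale (SE 0.10, 95% interval −0.50 to −0.05, adjusted p = 0.162). Irx2, which marks the ventricular septum together with Irx1, had 564, 607 and 735 normalized counts in wild-type libraries and 554, 490 and 482 in deletion libraries. Its wild-type replicate 3 stood above the other wild-type libraries. The means were 635 ± 88.9 and 509 ± 39.6 (SD, n = 3), with a limma estimate of −0.31 (SE 0.11, 95% interval −0.57 to −0.06, adjusted p = 0.148). Neither Irx1 nor Irx2 passed the threshold under any of the 21 alternatives that kept the groups, and both stayed below 0 in all of them.

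Irx4 had 1658, 1781 and 1667 normalized counts in wild-type libraries and 1915, 1787 and 1626 in deletion libraries. The groups overlapped, with both the highest and the lowest library in the deletion group. The means were 1702 ± 68.6 and 1776 ± 144 (SD, n = 3), from 1461 to 2002 reads per library. The limma estimate was 0.06 on the log2 scale (SE 0.08, adjusted p = 0.697). Its 95% interval in this fit ran from −0.11 to 0.23, so a fall beyond 0.11 on the log2 scale lies outside it. That bound applies to this fit alone, and intervals under other settings are not given here. Hand2 in the same libraries had a log2 fold change of −1.85. The sign of the Irx4 estimate was not stable: it was −0.07 with the length and GC trend taken out and −0.04 with cardiomyocyte markers set equal, which moved the median of all genes to −0.11.

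**Figure D2:**
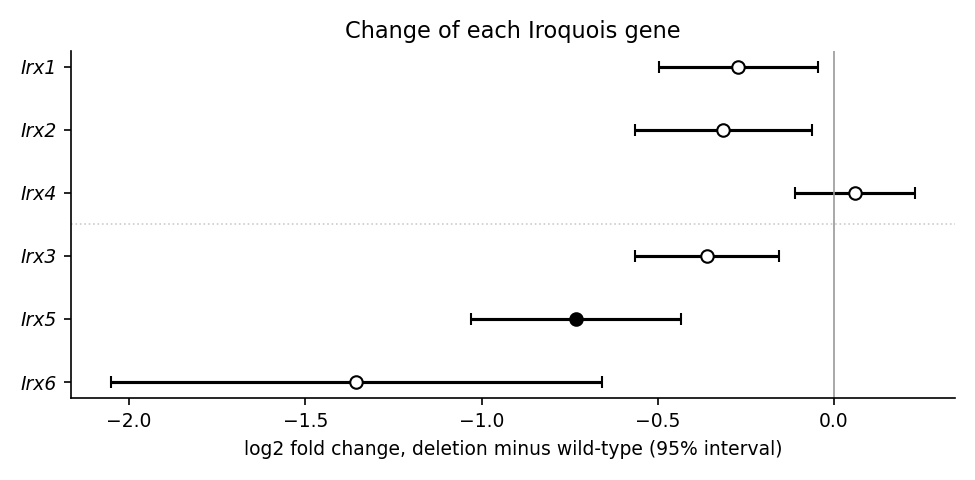
Log2 fold change of each Iroquois gene, deletion minus wild-type, with its 95% interval from limma; the chromosome 13 genes are above the dotted line and the chromosome 8 genes below it, and a filled point marks an adjusted p under 0.05. Irx5 at −0.73 is filled, Irx4 at 0.06 spans 0, and Irx6 at −1.35 has the widest interval.

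Per length, Irx4 was the leading Iroquois gene of these hearts. Divided by the annotated exon length, it stood at 653 ± 26.3 normalized counts per kilobase in wild-type hearts (SD, n = 3), followed by Irx3 at 197 ± 5.26, Irx2 at 194 ± 27.1, Irx1 at 162 ± 7.19 and Irx5 at 116 ± 12.2. The ranges of Irx3 and Irx2 overlapped, and the lowest Irx2 library, at 172, was just above the highest Irx1 library, at 169. The other neighbours in this order were apart. In deletion hearts Irx4 stood at 681 ± 55.4 per kilobase, Irx2 at 155 ± 12.1, Irx3 at 154 ± 12.7, Irx1 at 134 ± 12.8 and Irx5 at 69.7 ± 9.48. There the ranges of Irx2, Irx3 and Irx1 ran into each other, and Irx5 stayed apart at the bottom. With the longest annotated transcript as the length, Irx2 came before Irx3 in both groups.

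**Figure D3:**
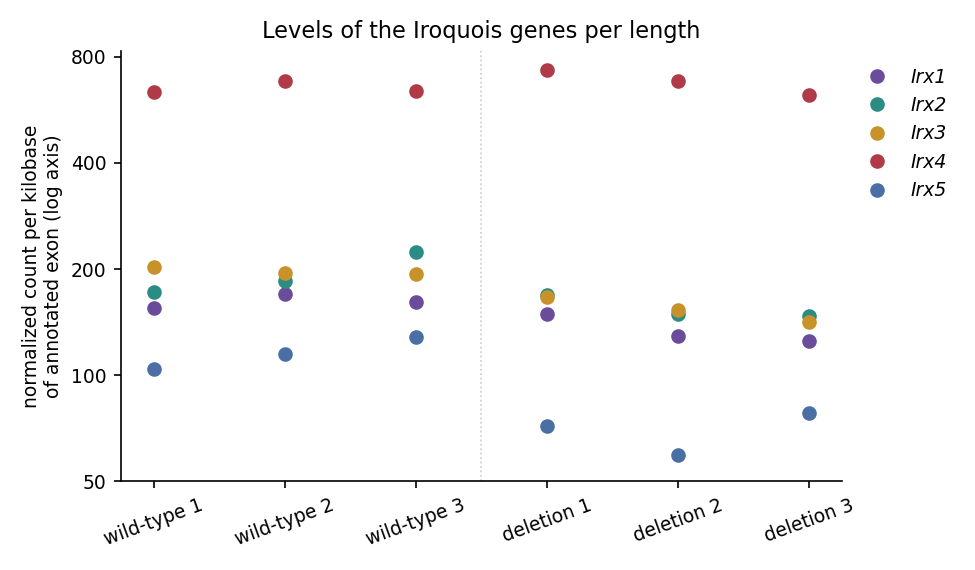
Normalized count per kilobase of annotated exon of the 5 genes (log axis) in each of the 6 libraries; the dotted line separates wild-type from deletion libraries. Irx4 is the highest gene in every library, between 624 and 734, and Irx5 the lowest, between 59.4 and 128.

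The make-up of the family shifted with these changes. Of the summed level per kilobase of the 5 genes, Irx4 made up 50.1%, 50.7% and 47.5% in wild-type libraries and 56.9%, 58.3% and 55.9% in deletion libraries. Irx5 made up 8.17%, 8.53% and 9.52% in wild-type libraries, against 5.55%, 5.05% and 7.00% in deletion libraries. The groups were apart for both genes, and also for Irx1, Irx2 and Irx3. By normalized count, groups were apart for 27.4% of all genes in either direction. The mean shares of Irx1, Irx2 and Irx3 were 12.3%, 14.6% and 14.9% in wild-type libraries and 11.3%, 13.0% and 12.9% in deletion libraries. Irx4 was thus the only member with a higher mean share in the deletion. These are shares of 1 sum, so they do not move independently.

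A ratio of members within a library does not depend on how that library was scaled. Relative to Irx4, every other member was lower in each deletion library than in each wild-type library. The log2 ratio of Irx4 to Irx5 was 2.35, 2.31 and 2.06 in wild-type libraries and 3.10, 3.27 and 2.74 in deletion libraries, a difference of 0.79. The log2 ratio of Irx3 to Irx4 was −1.56, −1.73 and −1.64 in wild-type libraries, against −2.06, −2.08 and −2.06 in deletion libraries, a difference of −0.42. For Irx2 to Irx4 the difference was −0.37 and for Irx1 to Irx4 it was −0.33. Irx5 was also lower relative to Irx1 and to Irx2 in each deletion library, with differences of 0.46 and 0.42 in the log2 ratio of the other gene to Irx5, while the groups overlapped for Irx3 to Irx5. The ratios among Irx1, Irx2 and Irx3 overlapped between groups, with differences from 0.04 to 0.09. Over the 10 pairs, 6 had groups apart, each with an exact two-sided permutation p = 0.1 (adjusted p = 0.167 over 10 pairs). That p is the smallest this test can give with 3 against 3, so it could not reach 0.05, and no other test of the ratios was run. The pairs share genes: 4 of the 6 hold Irx4 and 3 hold Irx5. Of single genes, 27.4% had groups apart in either direction, and the share over all gene pairs was not computed.

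**Figure D4:**
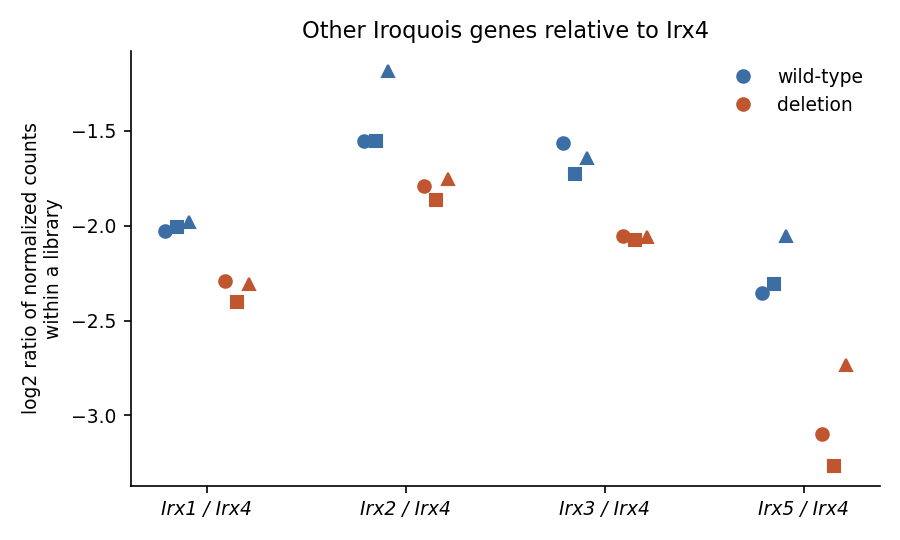
Log2 ratio of Irx1, Irx2, Irx3 and Irx5 to Irx4 within each library, from normalized counts not divided by length; circles, squares and triangles are replicates 1, 2 and 3. For each gene the 3 deletion libraries lie below the 3 wild-type libraries, with Irx5 at −2.74 to −3.27 in the deletion.

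The genes around the Iroquois clusters were read beside the members. Of 62 other genes annotated within 500 kb of a member, 17 were among the genes measured, Irx6 included, and limma called 0 of them. At an unadjusted p under 0.05 there were 5 of the 17, beside 21.4% of all genes, and 7 of the 17 had groups apart, beside 27.4% of all genes. The 5 were Irx6, Gm47836 (log2 change −0.60), Ndufs6 (−0.32) and Mmp2 (−0.28), all lower, and Slc12a7 (0.24), higher; these were named after their values were seen. Nearest to a member was Gm20554, a long non-coding RNA 0.3 kb from Irx2, at 156 ± 9.57 in wild-type and 137 ± 10.7 in the deletion (mean ± SD, n = 3), a limma log2 change of −0.18 with adjusted p = 0.454. Crnde, 1.5 kb from Irx5, stood at 151 ± 3.73 in wild-type and 139 ± 12.6 in the deletion (mean ± SD, n = 3), a limma log2 change of −0.12 with adjusted p = 0.634, beside the −0.73 of Irx5. Gm21817, 18.4 kb from Irx5, stood at 19.8 ± 8.85 in wild-type and 21.4 ± 1.71 in the deletion (mean ± SD, n = 3), a limma log2 change of 0.19 with adjusted p = 0.795; its sign turned in 2 alternatives. The groups did not overlap for Gm20554 and Crnde. Fto, whose introns are known to hold enhancers of Irx3, was chosen after its values were seen and stood at 3121 ± 225 in wild-type and 3167 ± 61.5 in the deletion (mean ± SD, n = 3), a limma log2 change of 0.02 with adjusted p = 0.878. Distances are from an annotation of GRCm38.

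Of 13 called genes named from the lists below, Hand2 included, 12 lost the call with no intensity trend and 12 in libraries labelled female alone, Hand2 being the one that kept it in both. With cardiomyocyte markers set equal 5 lost it (Kcne1, Gata3, Trps1, Kdr and Meox1), and with labelled sex as a term 5 (Kcne1, Kcna5, Trps1, Kdr and Meox1). The counts of calls in the lists below stand beside 1.5% of all genes called lower and 1.55% called higher in limma. Their counts at an unadjusted p under 0.05 in limma stand beside 21.4% of all genes in either direction. Of the 15330 genes, 1711 were lower and 1570 higher at that p. Their counts of groups apart stand beside 27.4% of all genes in either direction. The calls over all genes also changed in number with the setting and the library left out, as given at the end.

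Among 13 factors known to act on Iroquois genes or to bind their proteins, Hand2 fell, 2 rose and 10 did not pass, with a list median of 0.07. Gata3 and Trps1, zinc finger factors known to bind the Irx5 protein, were the genes that rose in limma. Gata3 stood at 257 ± 22.02 in wild-type and 369 ± 10.2 in the deletion (mean ± SD, n = 3), a limma log2 change of 0.52 with adjusted p = 0.0311. Trps1 stood at 384 ± 8.81 in wild-type and 510 ± 12.7 in the deletion (mean ± SD, n = 3), a limma log2 change of 0.41 with adjusted p = 0.0325. No rise was called without wild-type replicate 3, without any 1 of the deletion libraries or with cardiomyocyte markers set equal, where limma gave adjusted p = 0.0826 for Gata3 and 0.145 for Trps1. Trps1 also missed the threshold with the length and GC trend taken out (adjusted p = 0.0844, limma). A second fall was called in 5 settings: without wild-type replicate 3, with that trend taken out, with cardiomyocyte markers set equal, with labelled sex as a term and in DESeq2.

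Of 8 genes of the conduction system and secreted factors linked to Iroquois proteins, 1 was called higher, 0 lower and 7 did not pass, with a list median of 0.01. The list had 0 genes called with the length and GC trend taken out, with cardiomyocyte markers set equal or with no intensity trend. It also had 0 with the replicate block, in libraries labelled female alone or without any 1 of the deletion libraries. Without wild-type replicate 2 a gene of this list was called lower.

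Irx4 is known to keep ventricular and atrial programmes apart, so both lists were read beside it. Of 16 ventricular and trabecular genes 2 rose, 0 fell and 14 did not pass, with a median of −0.07. At an unadjusted p under 0.05 in limma 2 were higher and 1 lower, and groups were apart for 3 higher and 1 lower. Nppb, which encodes a natriuretic peptide, stood at 2671 ± 678 in wild-type and 4510 ± 695 in the deletion (mean ± SD, n = 3), a limma log2 change of 0.78 with adjusted p = 0.0418. Kcne1, a potassium channel subunit gene, stood at 295 ± 6.59 in wild-type and 399 ± 18.2 in the deletion (mean ± SD, n = 3), a limma log2 change of 0.44 with adjusted p = 0.0382. The call of Kcne1 ended with cardiomyocyte markers set equal (adjusted p = 0.120, limma) and with the length and GC trend taken out (0.0509). Of 14 atrial and sinus venosus genes 2 rose, 0 fell and 12 did not pass, with a median of 0.24. At an unadjusted p under 0.05 in limma 7 of the 14 were higher and 1 lower, beside 21.4% of all genes in either direction. Groups were apart for 7 of the 14, all higher, beside 27.4% of all genes in either direction. Dkk3, which encodes a secreted protein of the Dickkopf family, stood at 2320 ± 275 in wild-type and 3263 ± 184 in the deletion (mean ± SD, n = 3), a limma log2 change of 0.50 with adjusted p = 0.0198. Kcna5, an atrial potassium channel gene, stood at 643 ± 112 in wild-type and 964 ± 61.1 in the deletion (mean ± SD, n = 3), a limma log2 change of 0.60 with adjusted p = 0.0344. Whether the medians of these lists differ was not tested, and both moved with the setting. The ventricular median ran from −0.17 with cardiomyocyte markers set equal to 0.07 in libraries labelled female alone. The atrial median ran from 0.14 with cardiomyocyte markers set equal to 0.28 with totals set equal without haemoglobin genes. These ranges leave out the recorded files. The ventricular rises numbered 1 without wild-type replicate 1 or 3 and 0 without any 1 of the deletion libraries. Of atrial genes limma called 3 higher when wild-type replicate 1 was left out, 1 when wild-type replicate 3 was, and 0 when any 1 of the deletion libraries was. Without wild-type replicate 2, 1 ventricular and 2 atrial genes were called lower, and 1 ventricular gene was called lower without wild-type replicate 3, with cardiomyocyte markers set equal, with labelled sex as a term, with the length and GC trend taken out and in DESeq2.

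Among the other TALE homeobox genes, which include partners of Hox proteins, limma called 0 of 12, with 2 lower and 1 higher at an unadjusted p under 0.05 and 1 lower and 1 higher in DESeq2. Of the limma settings, 4 called 1 lower (a pseudocount of 5, quantile normalization, cardiomyocyte markers set equal and the length and GC trend taken out), as did edgeR, and leaving out wild-type replicate 2 gave 1 higher. The list median was 0.08. Irx6 had the lowest estimate.

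Iroquois genes are also known from tissues that border the heart, and in the heart from endocardium, so markers of other cells were read beside the members. In bulk tissue, fewer cells of a type and less RNA per cell cannot be told apart. The 8 cardiomyocyte markers, led by Actc1 and Myh7, summed to 698442 to 767048 normalized counts in wild-type and 752588 to 827061 in deletion hearts, and limma called 0 of them (1 lower and 3 higher at an unadjusted p under 0.05, and 1 lower and 3 higher in DESeq2). Actc1 had a log2 change of 0.02, whose sign turned with cardiomyocyte markers set equal, and Myh7 of 0.18. Of 8 endocardial and endothelial markers 1 fell, the receptor gene Tek (−0.35), and 1 rose, the receptor gene Kdr (0.33), with sums of 21941 to 23423 in wild-type and 22638 to 23425 in deletion hearts. Emcn, an endothelial sialomucin gene named after its values were seen, stood at 1329 ± 111 in wild-type and 1017 ± 84.3 in the deletion (mean ± SD, n = 3), with groups apart, a log2 change of −0.39 and adjusted p = 0.0505 in limma. In 5 settings 2 endothelial markers were called lower: DESeq2, a pseudocount of 5, a mean of at least 50, cardiomyocyte markers set equal and without wild-type replicate 2. Cdh5, a cadherin of endothelium, stood at 4261 ± 259 in wild-type and 4250 ± 109 in the deletion. With libraries scaled to the endothelial list, an alternative chosen after seeing the data, Irx5 had an estimate of −0.69 (adjusted p = 0.0266, limma). Of 6 cushion mesenchyme markers 3 fell, Twist1 (−1.14), Postn (−1.27) and Msx1 (−0.58), while Sox9 was at 0.14 with a sign that turned without wild-type replicate 1 or without deletion replicate 3. The cushion list summed to 1926 to 2631 in wild-type and 1326 to 1818 in deletion hearts. The part of these changes in the fall of Irx5 was not tested. Without wild-type replicate 3 limma called 0 endothelial markers and 1 cushion marker, without deletion replicate 1 or 2 it called 0 of both lists, and without deletion replicate 3 it called 0 endothelial markers and 1 cushion marker.

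Of 9 neural tube markers 4 were among the genes measured, with sums of 222 to 261 normalized counts in wild-type and 270 to 383 in deletion hearts; Tubb3 had a log2 change of −0.50 and Sox3 of 0.70. Of 10 markers of pharynx and foregut epithelium 9 were measured, summing to 4354 to 6577 in wild-type and 5362 to 5771 in deletion hearts, with the keratin genes Krt8 (0.06) and Krt18 (−0.03) holding most of that sum and both changing sign under some alternatives. The log2 changes of the 9 had a median of 0.77 and ran from −0.37 for Cdh1 to 2.69 for Pax9, which stood at 11.4 ± 12.7 in wild-type and 66.9 ± 46.7 in the deletion (mean ± SD, n = 3) with overlapping groups and adjusted p = 0.0715 in limma; Cdh1 and Pax9 were named after their values were seen. That median depended on the setting. It was 0.06 in edgeR and in DESeq2, and 0.15 over the 6 genes with a mean of at least 50. In libraries labelled female alone it was −0.0036, and without wild-type replicate 1 it was 1.68. Without wild-type replicate 1, 3 of these 9 were called higher, and 1 with cardiomyocyte markers set equal. Of 6 neural crest markers 3 were measured, summing to 131 to 223 and 191 to 222, with Dlx2 at 0.40. Of 6 epicardial markers, led by Tbx18 (0.72) and Wt1 (0.47), the sums were 1459 to 2303 and 2089 to 3495. The 6 blood markers ranged widely within both groups, 119278 to 348167 and 84561 to 450655, with Hbb-bh1 at −0.09 and Hbb-y at −0.02, signs that turned under several alternatives. In limma as reported, 0 genes of these 5 lists were called. At an unadjusted p under 0.05 there were 2 neural tube, 2 foregut, 1 neural crest, 3 epicardial and 0 blood markers, all higher. Over all genes, 21.4% had such a p in either direction, and 1570 of 15330 were higher with it. DESeq2 called 1 epicardial marker. Other limma settings called epicardial markers higher, 3 without wild-type replicate 2, 1 with totals set equal without haemoglobin genes and 1 with the length and GC trend taken out, and 1 neural tube marker was called higher without wild-type replicate 1. Of 6 markers of paraxial mesoderm 1 was measured, Meox1, which rose: it stood at 40.5 ± 5.33 in wild-type and 76.5 ± 11.1 in the deletion (mean ± SD, n = 3), a limma log2 change of 0.90 with adjusted p = 0.0496. With 1 library left out, that call held only without wild-type replicate 1. The part of these tissues in the Iroquois values was not tested.

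The genes whose pattern over the 6 libraries was most like that of Irx5, by Pearson's r of log2(normalized count + 1) among 10921 genes with a mean of at least 100, were Ergic2 (r = 0.998), Dimt1 (r = 0.996) and Fastkd2 (r = 0.996). Ergic2 stood at 3107 ± 68.9 in wild-type and 2767 ± 75.0 in the deletion (mean ± SD, n = 3). Dimt1 stood at 830 ± 40.1 in wild-type and 675 ± 32.0 in the deletion, and Fastkd2 at 1358 ± 32.7 in wild-type and 1192 ± 32.8 in the deletion. Their log2 fold changes were −0.17, −0.30 and −0.19, each smaller in size than that of Irx5, and none passed. Among the other members r with Irx5 was 0.81 for Irx3, 0.82 for Irx1, 0.84 for Irx2 and −0.43 for Irx4. These r values describe 6 libraries that share the group difference.

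Over the 21 alternatives that kept the groups, Irx5 had log2 fold changes from −0.92 to −0.62 and passed in 16, Irx3 from −0.52 to −0.30 and passed in 3, Irx2 from −0.41 to −0.17, Irx1 from −0.40 to −0.22, and Irx4 from −0.07 to 0.12, with no call for the last 3.

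**Figure D5:**
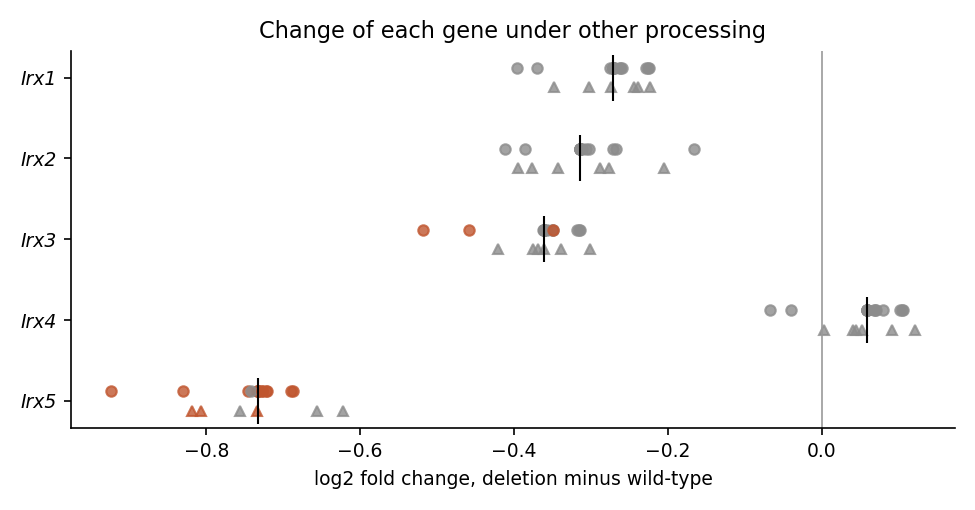
Log2 fold change of each gene under 21 alternatives, with circles for other scalings, filters and tests, triangles for fits with 1 library left out, a vertical tick for the value reported and orange for an adjusted p under 0.05. Irx5 stays between −0.92 and −0.62, and Irx4 lies on both sides of 0.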

How the data were processed

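Total RNA of stage-matched, micro-dissected hearts was turned into stranded poly(A) libraries from 300 ng with a TruSeq kit and sequenced in paired ends on a NovaSeq, per the labels' protocols. Builds GRCm39 and mm39 stand in the submitters' processing notes, as do the tools DESeq2 1.30.1, STAR 2.7.9a, Subread 2.0.1, bcl2fastq 2.20 and featureCounts. Annotation, strand setting and gene filter were not given. Deposited were normalized counts, a signal per gene, as the file names call them. That reads were divided by 1 factor per library was inferred from the values, as described next. 5 further files repeat 1 column each.

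Divided by the value of 1 read, 100% of values came out whole (tolerance 0.01), which gave the recovered reads, 25583210 to 32043595 per library. Groups were compared in R 4.3.3 with limma 3.58.1, with an intensity trend, on log2 of the normalized count plus a pseudocount of 1, over genes with a mean of at least 10 (the lowest was 15.4), two-sided, adjusted over all genes (Benjamini-Hochberg). Fold changes are on that scale, which understates changes of low genes. edgeR 4.0.16 and DESeq2 1.42.0 were run on recovered reads. The fit was also run on simulated data, but its outcome is not given here, so no accuracy is claimed from it. Lengths, GC content (96.8% of rows) and neighbours came from the GRCm38 annotation GENCODE M21, while the authors used another build. The members, gene lists and tests were chosen with earlier results of these data known. Named genes followed a rule: all members, Hand2, up to 4 called or else up to 2 genes of each list by p, up to 2 genes of each marker list by mean, the 3 nearest neighbours, and the 3 genes most like Irx5. Some genes under this rule are not reported here. Called markers outside that rule were named after their values were seen. Alternatives covered the pseudocount, filter, scaling, variance model, test, sex, replicate block, recorded files, a length and GC trend and each library left out.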

Additional observations from a re-analysis of the deposited data

How the results depend on the processing

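Genes called lower and higher numbered 230 and 237. They were 633 and 121 with cardiomyocyte markers set equal, 600 and 539 in DESeq2, 305 and 192 with the length and GC trend taken out, 73 and 73 with no intensity trend, 23 and 12 in libraries labelled female, and 0 and 0 under the recorded files. With totals set equal without haemoglobin genes 393 were higher. Leaving out 1 library gave 61 to 695 lower and 42 to 466 higher. The replicate block gave 110 and 96, and Irx5 kept its call there (adjusted p = 0.0444, limma). Kcne1, Dkk3, Kcna5, Gata3, Trps1, Kdr, Tek and Meox1, 8 of 13 called genes named, lost theirs (adjusted p = 0.0502 to 0.0915, limma). The deviations of same-numbered libraries from their group means correlated at −0.035, −0.12 and −0.14, and those of other pairs at −0.16 to 0.25. Deviations of 3 libraries sum to 0 within a group, so these values cannot show whether same-numbered libraries had more in common than a number. Irx3 passed with cardiomyocyte markers set equal (−0.46), with the trend taken out (−0.52) and in DESeq2 (−0.35). Irx5 missed the threshold with no intensity trend (−0.73), in female-labelled libraries (−0.74) and without any of 3 libraries, within −0.82 to −0.62 over the 6 fits. Irx4 turned sign with cardiomyocyte markers set equal (−0.039) and with the trend taken out (−0.067). Under the recorded files the members that turned were Irx1 0.029, Irx3 0.059, Irx4 −0.083, Irx5 0.26, and the other genes Hand2 0.57, Kcne1 −0.19, Nppb −0.35, Dkk3 −0.31, Kcna5 −0.31, Gata3 −0.12, Trps1 −0.13, Irx6 0.87, Actc1 −0.093, Myh7 −0.14, Kdr −0.19, Cdh5 0.015, Tek 0.059, Wt1 −0.16, Msx1 0.18, Twist1 0.60, Postn 0.77, Hbb-bh1 1.28, Hbb-y 1.28, Tubb3 0.62, Sox3 −0.26, Krt18 0.17, Meox1 −0.15, Crnde 0.12, Ergic2 0.052, Dimt1 0.081, Fastkd2 0.058. The log2 ratios that turned there were Irx1/Irx3 −0.031, Irx1/Irx4 0.11, Irx1/Irx5 −0.23, Irx2/Irx3 −0.15, Irx2/Irx5 −0.35, Irx3/Irx4 0.14, Irx3/Irx5 −0.20, Irx4/Irx5 −0.34. The ratio Irx1/Irx2 turned with the trend taken out (−0.010) and ranged from −0.069 to 0.10 with 1 library left out, and Irx2/Irx3 from −0.056 to 0.17. With equal cardiomyocyte markers the sign turned for Actc1 −0.074, Krt8 −0.039. With quantile normalization the sign turned for Cdh5 0.038, Hbb-y 0.0042. With equal medians the sign turned for Cdh5 0.0090. With equal totals without haemoglobin the sign turned for Cdh5 0.044, Hbb-y 0.022, Krt18 0.020. With equal endocardium and endothelium markers the sign turned for Cdh5 0.041, Hbb-y 0.020, Krt18 0.017. With edgeR the sign turned for Cdh5 0.0040, Hbb-bh1 0.081, Hbb-y 0.14. With DESeq2 the sign turned for Cdh5 0.0050, Hbb-bh1 0.081, Hbb-y 0.14. With the trend taken out the sign turned for Hbb-bh1 0.088, Hbb-y 0.13. With female-labelled libraries only the sign turned for Krt8 −0.0036, Gm21817 −0.15. With 1 library left out Actc1 ran from −0.092 to 0.11, Cdh5 from −0.037 to 0.046, Sox9 from −0.10 to 0.34, Hbb-bh1 from −0.65 to 0.52, Hbb-y from −0.57 to 0.62, Krt8 from −0.062 to 0.12, Krt18 from −0.18 to 0.11, Gm21817 from −0.11 to 0.51. By the longest transcript, and without wild-type replicate 1, Irx2 took place 2 and Irx3 place 3 in wild-type hearts, and without deletion replicate 3 Irx2 took place 3 and Irx3 place 2 in deletion hearts. The cause of these changes was not tested. Leaving off the filter on low values repeated the reported fit, since it removed no gene.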
